A study of Mus musculus with 12 samples.

Results

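The genes described here set the pace of the G1 phase in splenic CD4+ T cells: the D-type cyclins Ccnd2 and Ccnd3, the E-type cyclin Ccne1, the kinase Cdk6, the CDK inhibitors Cdkn1b, Cdkn2a, Cdkn2c and Cdkn2d, and the pocket proteins Rb1 and Rbl2. These 10 genes were taken by name from a count table of 55414 gene records, and all 10 were found. The table holds 12 RNA-seq libraries of CD4+ T cells purified from the spleens of wild-type male BALB/c mice aged 18 weeks, with 3 libraries in each of 4 groups. Mice of the LIP group carried a silk ligature around the maxillary second molars (ligature-induced periodontitis) and mice of the CTL group did not. On day 0 the cells were taken straight after purification. For day 2 they were kept in culture for 2 days with IL-2 and antibodies against CD28 and TCRbeta, so culture, stimulation and time cannot be told apart between the days. The treatment labels of 4 day 2 libraries name anti-CD29 or anti-CD30 in place of anti-CD28, while the protocol shared by all libraries names anti-CD28. The labels and the study's methods give different concentrations of IL-2 and anti-TCRbeta, so none is stated here. Libraries are named below by their group and the number in their titles, which were 88, 89 and 94 for CTL and 92, 93 and 94 for LIP on day 0, and 92, 93 and 97 for CTL and 90, 96 and 97 for LIP on day 2. No source states that each library came from a separate mouse, so the p-values measure the spread between these libraries.

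In a resting T cell, CDK inhibitors hold the G1 kinases in check and the pocket proteins, with Rbl2 prominent among them, keep E2F target genes silent. Signals through the T cell receptor, CD28 and IL-2 raise D-type cyclins, which pair with Cdk4 and Cdk6 and begin the phosphorylation of the pocket proteins. Cyclin E with Cdk2 then completes it, E2F factors are released, and replication genes are transcribed. INK4 inhibitors such as Cdkn2a, Cdkn2c and Cdkn2d bind Cdk4 and Cdk6, while Cip/Kip inhibitors such as Cdkn1b act mainly on cyclin E-Cdk2. Cdkn2a is also widely used as a marker of senescence.

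All 10 are protein-coding genes of GENCODE M39 and are placed here on GRCm39. Ccnd2 (ENSMUSG00000000184) is at chr6:127102125-127129156 and Ccnd3 (ENSMUSG00000034165) at chr17:47815767-47910624. Cdk6 (ENSMUSG00000040274) is at chr5:3391485-3581008 and Ccne1 (ENSMUSG00000002068) at chr7:37797404-37808264. Of the inhibitors, Cdkn1b (ENSMUSG00000003031) is at chr6:134897364-134902476, Cdkn2a (ENSMUSG00000044303) at chr4:89192708-89212890, Cdkn2c (ENSMUSG00000028551) at chr4:109517957-109524386 and Cdkn2d (ENSMUSG00000096472) at chr9:21199700-21202727. The pocket protein genes Rb1 (ENSMUSG00000022105) and Rbl2 (ENSMUSG00000031666) are at chr14:73421113-73563507 and chr8:91796664-91850492. Values are sums over all exons of a gene, so the 2 transcripts of Cdkn2a, which encode an INK4 inhibitor and the unrelated ARF protein, were not separated.

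Promoter windows from RefSeq (assembly GRCm38.p6, 250 bases before to 50 after a start site) were found for 8 of the 10 genes, in 11 windows. No window was listed for Ccnd2 or Rb1. The 250 upstream bases are shown for Ccne1 and Cdkn2c, which were low on day 0 and rose most in both groups apart from Cdk6, for the inhibitor that fell (Cdkn1b) and for the tested gene with the largest LIP-to-CTL difference on day 2 (Rbl2). The sequences run 5′ to 3′ along the gene's strand, and capitals mark every match in them, on either strand, to the E2F spellings TTTCGCGC, TTTGGCGC, TTTCCCGC and TTTGCCGC, the cell-cycle homology region (CHR) TTTGAA or TTCGAA, the forkhead motif GTAAACA, the GC box GGGCGG and the CCAAT box.
Ccne1 (chr7:38107491-38107740, minus strand): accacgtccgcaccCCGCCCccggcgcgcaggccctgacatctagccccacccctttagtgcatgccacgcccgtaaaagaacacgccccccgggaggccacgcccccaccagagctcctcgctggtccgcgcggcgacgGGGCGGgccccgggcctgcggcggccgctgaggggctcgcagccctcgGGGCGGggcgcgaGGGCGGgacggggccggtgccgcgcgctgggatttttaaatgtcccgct
Cdkn2c (chr4:109666757-109667006, minus strand): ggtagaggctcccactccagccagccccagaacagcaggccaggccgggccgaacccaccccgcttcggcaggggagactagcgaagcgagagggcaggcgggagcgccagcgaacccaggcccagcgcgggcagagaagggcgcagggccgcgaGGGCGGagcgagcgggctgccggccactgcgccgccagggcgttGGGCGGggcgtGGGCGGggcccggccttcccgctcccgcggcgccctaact
Cdkn1b (chr6:134920151-134920400, plus strand): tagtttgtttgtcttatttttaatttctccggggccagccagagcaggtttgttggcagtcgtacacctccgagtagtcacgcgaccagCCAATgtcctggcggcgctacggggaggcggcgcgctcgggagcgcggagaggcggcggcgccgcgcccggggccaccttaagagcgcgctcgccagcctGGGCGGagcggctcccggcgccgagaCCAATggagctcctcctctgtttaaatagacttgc
Rbl2 (chr8:91069807-91070056, plus strand): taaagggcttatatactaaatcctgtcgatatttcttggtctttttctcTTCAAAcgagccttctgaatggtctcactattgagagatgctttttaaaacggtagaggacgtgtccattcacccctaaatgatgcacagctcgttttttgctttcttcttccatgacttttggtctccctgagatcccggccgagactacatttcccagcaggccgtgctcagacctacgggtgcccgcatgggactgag
The GC box was present in 9 of the 11 windows, against 35.7% of all 32841 windows of the same length, and the CCAAT box in 5 of 11, against 37.4%. The share of G and C ran from 44.0% in the downstream Cdkn2c window to 77.0% in the upstream Cdkn2a window, with 76.0% for Ccne1. The E2F letters occurred in 1 window, the upstream one of Cdkn2a, against 2.27% of all windows. The CHR letters occurred in the Rbl2 window, 201 bases before the start, against 19.2%, and the forkhead letters in the upstream Ccnd3 window, against 3.65%. Other matches did not overlap, except for a CCAAT box that overlapped a GC box in the downstream Cdkn2a window. A match is a string of letters and shows no binding, and a missing match says only that these letters are not in the window.

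Library totals ran from 6249018 to 7845676 counts on day 0 and from 8691699 to 12866718 on day 2, so that 3 counts amounted to between 0.233 and 0.480 CPM (counts relative to the library's total). Levels are given as CPM scaled by trimmed mean of M-values (TMM) factors over all 12 libraries. All 6 CD4+ T cell markers (Cd4, Cd3d, Cd3e, Cd3g, Trac, Cd28) were present, summing to between 1832 and 2912 CPM. Of other cell types, the 5 B cell markers summed to between 96.7 and 127 CPM on day 0 and to between 20.8 and 59.3 on day 2, the 4 NK cell markers to between 52.8 and 69.9 and to between 5.64 and 17.6, and the 2 CD8 markers to at most 13.2. Myeloid and erythroid markers summed to at most 13.1 and 3.01 CPM, with the myeloid markers S100a8 and S100a9 at 0. Pancreatic acinar markers summed to between 0.689 and 24.5 CPM in LIP and to at most 0.658 in CTL on day 0, and to between 3.58 and 6.27 in LIP and 5.11 and 10.3 in CTL on day 2. The part of these cells in the differences below was not tested. In bulk RNA, fewer cells of a type and less RNA per cell cannot be told apart. A gene was called changed at an adjusted p under 0.05 (edgeR quasi-likelihood test, Benjamini-Hochberg over all genes tested), and 9 of the 10 genes had enough counts to be tested. Cdkn2a did not. CTL 94 on day 0 and LIP 90 on day 2 stood apart in that leaving out either raised the number of genes called between LIP and CTL on its day, and results that rest on them are given both ways.

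On day 2 the levels of Cdk6, Ccne1, Cdkn2c and Cdkn2d were higher than on day 0 in both groups, and those of Cdkn1b and Ccnd3 lower. These levels are relative to the library, so they do not give the amount of RNA per cell. In the CTL group, 7 of the 9 tested genes were called between day 2 and day 0, 5 higher and 2 lower. In the LIP group 7 of 9 were called, 4 higher and 3 lower. The change was broad across the transcriptome: of 15475 genes tested, 35.3% were called higher and 33.7% lower in CTL, and 36.6% higher and 35.2% lower in LIP. The median absolute log2 fold change of the 9 genes was 0.73 in CTL and 0.82 in LIP, beside 0.81 and 0.90 over all genes. The share of members called, 7 of 9, is near that background and is no result about the members.

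**Figure D1:**
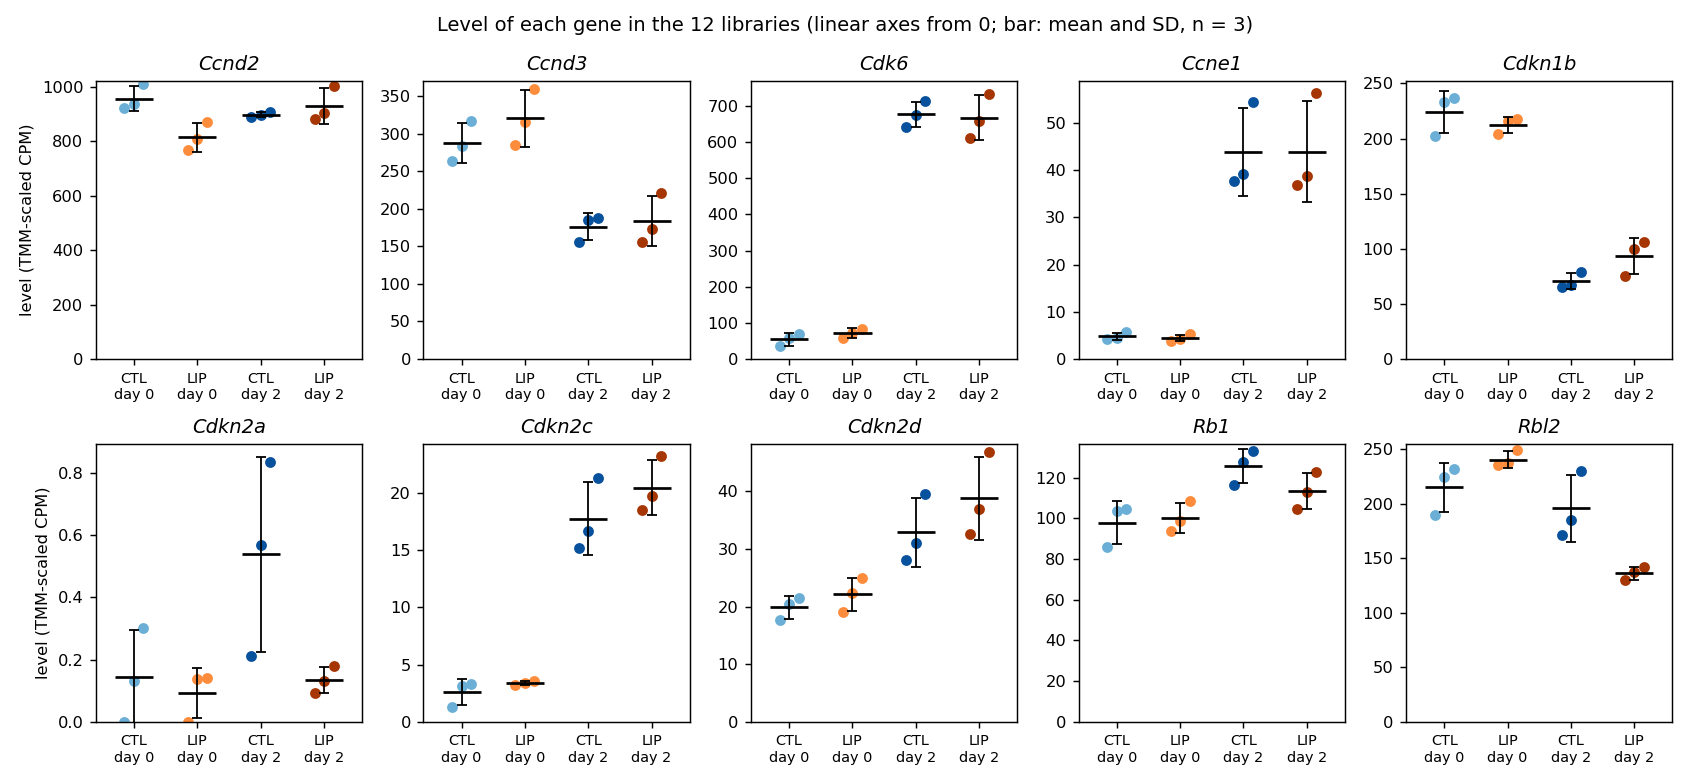
Level of each of the 10 genes in every library, in TMM-scaled CPM on linear axes that start at 0, with 1 panel per gene, 1 point per library, and the mean and SD of 3 libraries for each group. Cdk6, Ccne1 and Cdkn2c stood far above their day 0 levels on day 2 in both groups, Cdkn1b stood below, Cdkn2a stayed under 1 CPM, and the 3 LIP libraries of day 2 lay below the 3 CTL libraries for Rbl2.

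Among the kinase partners, Cdk6 showed the largest rise of the 9 tested genes in CTL. Its level on day 0 was 57.1, 34.8 and 70.4 CPM in CTL 88, 89 and 94, and 58.7, 73.0 and 83.9 CPM in LIP 92, 93 and 94. On day 2 it was 712, 675 and 642 CPM in CTL 92, 93 and 97, and 610, 734 and 659 CPM in LIP 90, 96 and 97. Every day 2 library lay above every day 0 library, and the CTL and LIP libraries overlapped on both days. The log2 fold change from day 0 to day 2 was 3.65 (SE 0.21, adjusted p = 7.8e-09), or 12.5-fold, in CTL and 3.21 (SE 0.21, adjusted p = 1.7e-08), or 9.28-fold, in LIP. Per kb of exon, Cdk6 made up 17.7% ± 4.84 (SD, n = 3) of the summed Cdk4 and Cdk6 level in CTL on day 0 and 40.4% ± 5.26 on day 2, and 21.3% ± 2.92 and 40.5% ± 6.17 in LIP. Cdk4 itself rose by 2.03 and 1.90 on the log2 scale, so both kinases were higher on day 2.

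Ccne1, the regulatory subunit of Cdk2 at the end of G1, was low in fresh cells. It was read at 4.52, 4.21 and 5.66 CPM in the CTL libraries of day 0 and at 3.86, 5.21 and 4.28 CPM in those of LIP. On day 2 the CTL libraries held 39.1, 37.7 and 54.5 CPM and the LIP libraries 56.3, 36.8 and 38.7 CPM. The days were fully separate in both groups, and the group means of day 2 were nearly equal, at 43.8 ± 9.31 and 43.9 ± 10.7 CPM. The log2 fold change was 3.19 (SE 0.22, adjusted p = 3.5e-08) in CTL and 3.30 (SE 0.22, adjusted p = 2.5e-08) in LIP. Its relative Ccne2 rose by 3.23 and 2.71, and Ccne1 held 52.1% ± 1.48 of the summed E-cyclin level per kb in CTL on day 0 and 51.0% ± 2.15 on day 2, and 46.2% ± 1.81 and 57.5% ± 4.70 in LIP.

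Neither D-type cyclin was called higher by edgeR, while DESeq2 called Ccnd2 higher in LIP (0.20, adjusted p = 0.034). Ccnd2 was already the most abundant of the 10 genes per kb of exon in fresh cells and remained so, at 924, 938 and 1010 CPM in CTL and 808, 767 and 873 CPM in LIP on day 0, and at 910, 891 and 897 CPM and 1004, 906 and 881 CPM on day 2. In CTL all day 2 libraries lay just below those of day 0, and in LIP all lay just above. The day 2 to day 0 difference was -0.09 (95% interval -0.29 to 0.11) in CTL and 0.19 (-0.01 to 0.38) in LIP on the log2 scale, with adjusted p = 0.39 and 0.076. Ccnd3 fell. It was at 263, 283 and 317 CPM in CTL and 285, 316 and 359 CPM in LIP on day 0, and at 156, 188 and 185 CPM and 221, 156 and 173 CPM on day 2. All day 2 libraries were below those of day 0, with log2 fold changes of -0.71 (SE 0.14, adjusted p = 4.2e-04) and -0.80 (SE 0.14, adjusted p = 1.4e-04). Ccnd1, the D-type cyclin typical of non-lymphoid cells, made up less than 1% of the D-cyclin level per kb and fell by 2.88 in CTL and by 1.85 in LIP on the log2 scale. The share of Ccnd2 in the summed D-cyclin level was 75.9% ± 0.783 in CTL on day 0 and 83.3% ± 1.55 on day 2, and 71.0% ± 1.80 and 83.2% ± 1.60 in LIP. On day 0 the LIP libraries (at most 73.1%) lay below the CTL libraries (at least 75.2%) in this share. In level, the groups did not overlap on day 0 for 19.1% of all genes.

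Among the inhibitors, Cdkn1b, which holds cyclin E-Cdk2 inactive in resting cells, fell between the days. Its day 0 values were 203, 233 and 237 CPM in CTL and 204, 218 and 216 CPM in LIP, and its day 2 values were 78.8, 67.5 and 65.8 CPM in CTL and 75.4, 107 and 99.5 CPM in LIP. Days were fully separate, with log2 fold changes of -1.67 (SE 0.13, adjusted p = 9.3e-08) in CTL and -1.18 (SE 0.13, adjusted p = 1.9e-06) in LIP. That left 0.315 of the day 0 level in CTL and 0.441 in LIP.

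The INK4 inhibitors Cdkn2c and Cdkn2d rose. Cdkn2c was at 3.32, 1.32 and 3.16 CPM in CTL and 3.58, 3.38 and 3.21 CPM in LIP on day 0, from 11 to 26 counts per library. On day 2 it was at 15.2, 16.7 and 21.4 CPM and at 19.7, 23.2 and 18.5 CPM. The days did not overlap, and the log2 fold change was 2.79 (SE 0.26, adjusted p = 5.0e-07) in CTL and 2.59 (SE 0.25, adjusted p = 5.7e-07) in LIP. Cdkn2d was the most abundant INK4 gene per kb in every group, holding 95.1% ± 2.42 of the family in CTL on day 0 and 84.9% ± 4.48 on day 2, where Cdkn2c held 12.3% ± 3.55. It went from 20.5, 17.7 and 21.4 CPM to 39.5, 31.1 and 28.1 CPM in CTL and from 24.9, 19.1 and 22.3 CPM to 46.8, 36.9 and 32.7 CPM in LIP. The log2 fold changes were 0.73 (SE 0.17, adjusted p = 0.0016) and 0.81 (SE 0.17, adjusted p = 6.3e-04), and again every day 2 library lay above every day 0 library of its group.

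Cdkn2a was at the limit of detection. The CTL libraries held 2, 0 and 1 counts on day 0 and 2, 7 and 5 on day 2, and the LIP libraries held 1, 1 and 0 counts on day 0 and 2, 1 and 1 on day 2. All LIP libraries and the CTL libraries of day 0 were at or under 3 counts, and CTL 93 and 97 of day 2 were the only libraries above. No LIP library of day 2 exceeded 0.179 CPM. With no filter on low counts the test took Cdkn2a in, with a LIP-to-CTL value on day 2 of -1.85 on the log2 scale (adjusted p = 0.39), a size that depends on the prior count of the fit. It was called in none of the 5 comparisons of that setting, where its adjusted p ran from 0.15 to 0.98. Its neighbour Cdkn2b, another INK4 inhibitor, had 0 to 5 counts per library and did not pass the filter either.

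Of the pocket proteins, Rb1 rose in CTL. It was at 104, 103 and 85.8 CPM in CTL and 93.8, 108 and 98.6 CPM in LIP on day 0, and at 133, 116 and 128 CPM and 113, 123 and 104.8 CPM on day 2. The CTL groups of the 2 days did not overlap while those of LIP did, and the log2 fold changes were 0.36 (SE 0.11, adjusted p = 0.0078) in CTL and 0.18 (SE 0.11, adjusted p = 0.14) in LIP. The difference between the 2 Rb1 changes was -0.18 (SE 0.15, adjusted p = 0.61) and was not called. The CTL value was 0.076 (adjusted p = 0.54) with upper-quartile factors and 0.18 (adjusted p = 0.15) with library totals in place of TMM. Rbl2, the pocket protein of quiescent cells, fell in LIP. On day 0 it was at 225, 190 and 232 CPM in CTL and 235, 237 and 249 CPM in LIP. On day 2 it was at 230, 186 and 172 CPM in CTL and 137, 142 and 130 CPM in LIP. In CTL the days overlapped and the log2 fold change was -0.14 (SE 0.11, adjusted p = 0.30). In LIP every day 2 library was below every day 0 library, and the log2 fold change was -0.82 (SE 0.12, adjusted p = 2.5e-05), leaving 0.567 of the day 0 level. The difference between these 2 changes was -0.68 (SE 0.16) on the log2 scale, with adjusted p = 0.088, and so was not called.

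**Figure D2:**
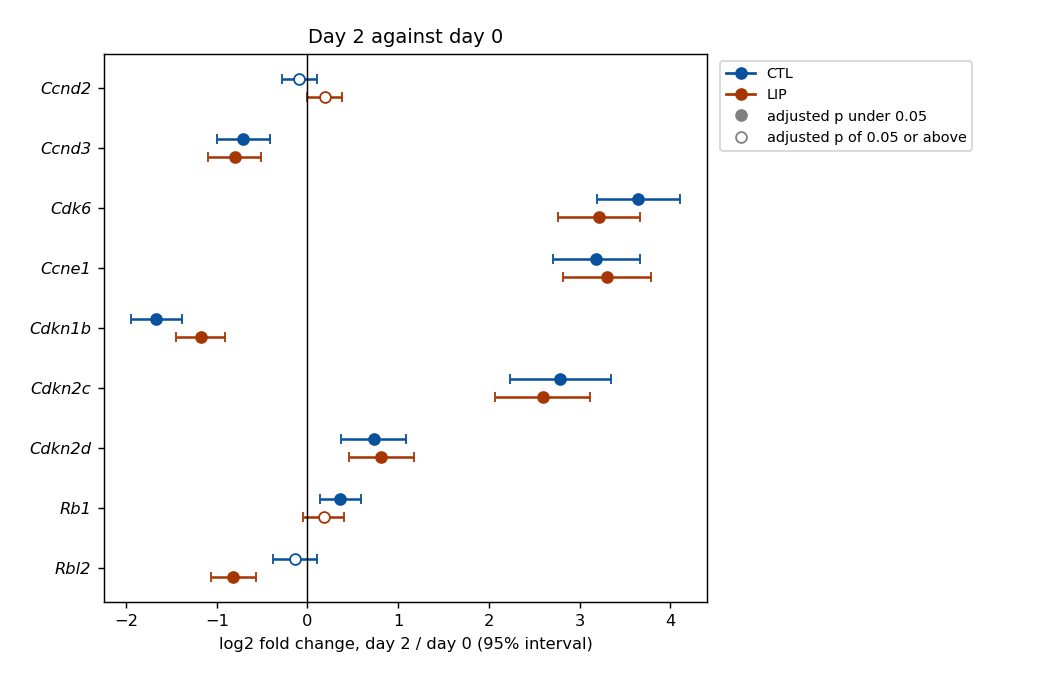
Log2 fold change of day 2 over day 0 for the 9 tested genes, with 95% intervals, in CTL (blue) and LIP (brown). Filled points have an adjusted p under 0.05. Cdk6, Ccne1 and Cdkn2c lie above 2 in both groups, Cdkn1b and Ccnd3 lie below 0 in both, and Rbl2 is filled in LIP alone.

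The smaller changes depended on how libraries were scaled. With upper-quartile factors or library totals in place of TMM, the median of all genes between days moved to -0.31 and -0.21 in CTL and to -0.32 and -0.36 in LIP, and the share of calls that were higher went from 51.1% to 38.4% and 42.4% in CTL and from 51.0% to 37.7% and 36.2% in LIP. Under both scalings the sign of Ccnd2 and Rb1 turned negative in LIP, with neither called there, Rb1 lost its call in CTL, and Ccnd2 and Rbl2 were called lower in CTL. With DESeq2, Ccnd2 was called higher in LIP (0.20, adjusted p = 0.034), where its adjusted p ran from 0.034 to 0.54 over all settings. Cdk6, Ccne1, Cdkn2c, Cdkn2d, Cdkn1b and Ccnd3 kept their direction and call in both groups under these scalings.

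The order of levels per kb of exon differed between the days. In CTL on day 0 it ran from Ccnd2 (102 CPM per kb) through Cdkn1b (49.3), Ccnd3 (31.1), Rbl2 (18.2), Cdkn2d (12.0), Rb1 (8.11), Cdk6 (3.75), Ccne1 (1.32) and Cdkn2c (0.409) to Cdkn2a (0.123). The library ranges of neighbours in this order did not overlap, apart from those of Cdkn2c and Cdkn2a at the low end. In CTL on day 2 Ccnd2 (95.6) was followed by Cdk6 (46.9), and then by Cdkn2d (19.8), Ccnd3 (19.1), Rbl2 (16.5), Cdkn1b (15.5), Ccne1 (12.1) and Rb1 (10.4), each of which overlapped its neighbour. In LIP on day 2 Ccnd2 (98.9) and Cdk6 (46.3) led again, followed by Cdkn2d (23.3), Cdkn1b (20.6), Ccnd3 (19.8), Ccne1 (12.1), Rbl2 (11.5) and Rb1 (9.40), with overlap between Cdkn2d, Cdkn1b and Ccnd3 and between Ccne1 and both Rbl2 and Rb1. In CTL, Cdk6 thus went from the seventh place to the second and Cdkn1b from the second to the sixth. With the length of the longest transcript in place of merged exons, Ccnd3 (74.6 CPM per kb) stood above Cdkn1b (49.3) on day 0. On day 2 Cdkn1b was then eighth in both groups and Cdkn2d in the sixth place in CTL and the fifth in LIP, and Rb1 was at 25.1 in CTL, so the orders of both days rest on the length used. Ccnd2 was first and Cdk6 second on day 2 in both groups with either length.

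Genes outside the 10 were counted from lists of the same pathway. The counts are read beside all genes tested, of which 35.3% were called higher and 33.7% lower in CTL. In LIP 36.6% were called higher and 35.2% lower. All 6 listed regulators of inhibitor turnover and CDK activation were called higher in both groups, among them Skp2, which helps to mark Cdkn1b protein for destruction (1.19 and 0.89 on the log2 scale in CTL and LIP), and Cks1b, its partner (4.14 and 4.44, the highest of the list). The lowest of that list was Fbxw7, which targets cyclin E, at 0.28 and 0.27. All 12 E2F-regulated replication genes were called higher, from Cdt1 (1.87) to Cdc6 (5.66) in CTL and from Mcm2 (2.43) to Cdc6 (5.48) in LIP. Of 8 cyclin and kinase partners, 6 were called higher and 1 lower in each group, with Ccna2 highest (4.62 and 4.65) and Ccnd1 lowest. Cdk2 rose by 1.98 and 1.64. Of 17 other pocket protein, E2F and MuvB genes, 13 were called higher and 2 lower in CTL and 14 higher and none lower in LIP. E2f7 was highest in CTL (5.22), E2f8 highest in LIP (4.51) and E2f5 lowest in CTL (-0.57), while the lowest called in LIP was Lin37 (0.40). E2f1, an activating E2F, rose by 3.69 and 3.37, and Rbl1, the pocket protein of cycling cells, rose by 0.97 and 1.64. Of 3 upstream regulators, Myc was the only one called (1.60 and 1.60), and Foxo1, a forkhead factor of quiescent T cells, was at -0.30 (adjusted p = 0.051) and -0.15 (adjusted p = 0.29). The medians of these lists are read beside -0.02 and -0.0028 over all genes in CTL and LIP: 2.93 and 2.93 for the replication genes, 1.73 and 1.85 for turnover, 1.503 and 1.52 for partners and 0.98 and 1.17 for the E2F and MuvB list.

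In the Cip/Kip family Cdkn1a, the inhibitor induced by p53 and by mitogens, had 2 to 5 counts per library on day 0 and 987 to 2540 on day 2. On day 2 its level was 262, 303 and 215 CPM in CTL 92, 93 and 97. In LIP 90, 96 and 97 it was 212, 133 and 128 CPM. The fitted log2 fold change was 9.15 in CTL and 8.25 in LIP (adjusted p = 2.8e-10 and 3.7e-10), where the size rests on the few day 0 counts and on the prior count of the fit. Per kb, Cdkn1b held 98.9% ± 0.248 of the family in CTL on day 0 and 26.6% ± 3.50 on day 2, while Cdkn1a held 72.8% ± 3.12 on day 2, the largest share in all 3 CTL libraries. In LIP on day 2 Cdkn1b held 32.0%, 50.9% and 50.5% in libraries 90, 96 and 97, above all 3 CTL libraries. Cdkn1a held 67.7%, 47.6% and 48.9% there, so with merged exons it led in LIP 90, while Cdkn1b led in LIP 96 and 97. With the longest transcript as length, Cdkn1a held 79.7% ± 2.51 in CTL and 63.7% ± 10.2 in LIP on day 2. With that length Cdkn1a led in all 3 LIP libraries, at 57.2% or more, beside at most 41.4% for Cdkn1b. Which of the 2 led in LIP 96 and 97 thus rests on the length used. In level, the groups did not overlap on day 2 for 21.5% of all genes. Cdkn1c was called in neither group.

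**Figure D3:**
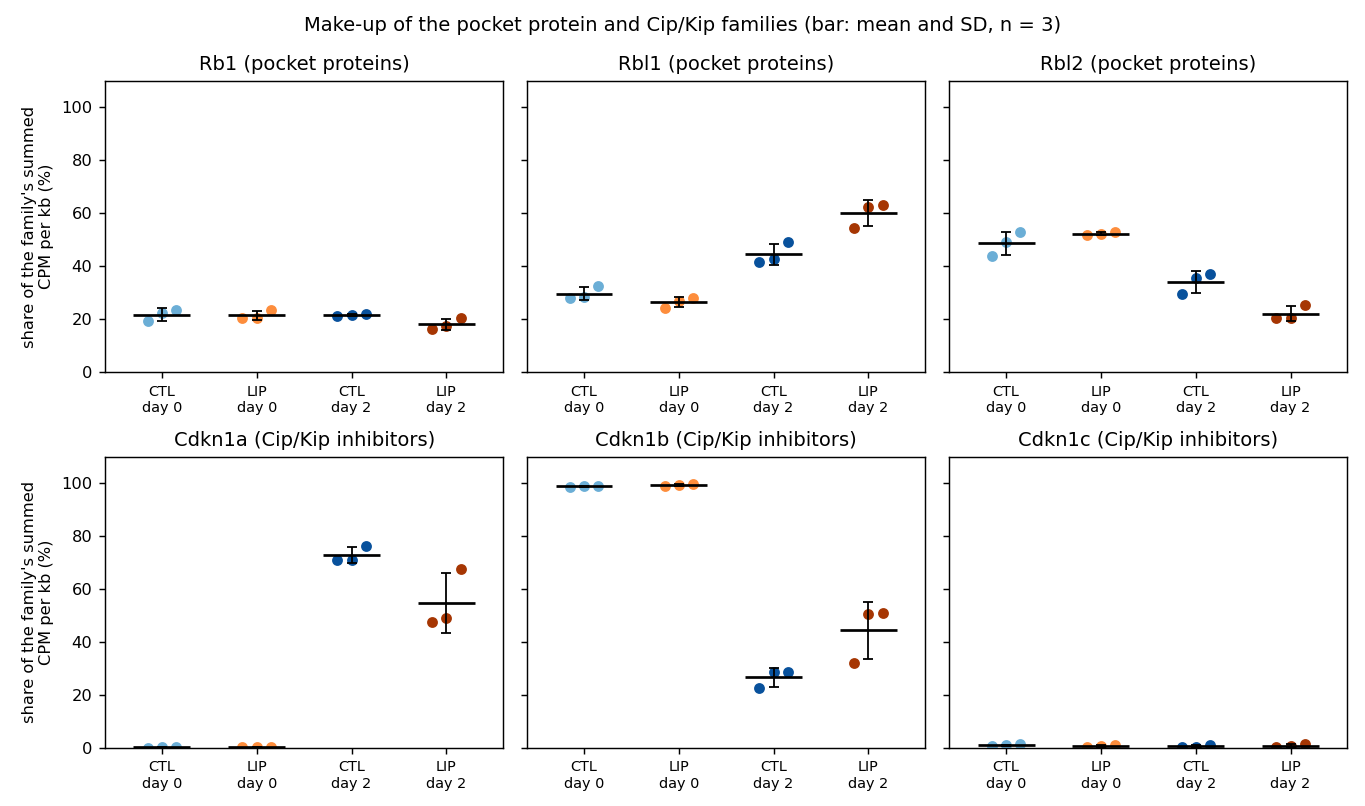
Share of each gene in the summed CPM per kb of merged exons of its family, in percent, for the pocket proteins (top) and Cip/Kip inhibitors (bottom), with 1 point per library and the mean and SD of 3 libraries. On day 2 the Rbl1 shares lie above and the Rbl2 shares below those of day 0 in both groups, with no test of the shares, and Cdkn1a holds most of the Cip/Kip level in the CTL libraries of day 2.

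Between LIP and CTL on day 0 none of the 9 tested genes was called by edgeR, beside 0.427% of all 14064 genes tested. At an unadjusted p under 0.05, 1 of 9 passed, beside 13.9% of all genes, and DESeq2, which called 202 genes (1.44%) in all, called none of the 7 it gave an adjusted p (all but Cdkn2c and Ccne1). The libraries of the 2 groups did not overlap for 2 of the 9 genes, beside 19.1% of all genes. These were Ccnd2, where all 3 LIP libraries (at most 873 CPM) were below all 3 CTL libraries (at least 924 CPM), and Rbl2, where LIP (at least 235 CPM) was above CTL (at most 232 CPM). The log2 fold change was -0.22 (SE 0.079, adjusted p = 0.24) for Ccnd2 and 0.17 (SE 0.084, adjusted p = 0.41) for Rbl2, whose value was 0.077 without CTL 89. Cdk6 had the largest value, 0.42 (SE 0.21, adjusted p = 0.39), and was called in 2 settings, without CTL 94 (0.66, adjusted p = 0.049) and with no filter on low counts (0.43, adjusted p = 0.0012). Its value was lower without CTL 89 (0.17) and without LIP 94 (0.29), and its adjusted p ran from 0.0012 to 1.00 over all settings. Without CTL 94 the calls over all genes went from 60 to 658, of which 257 were higher and 401 lower.

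Between LIP and CTL on day 2 none of the 9 genes was called by edgeR, and of all 14041 genes tested 0.00% were. At an unadjusted p under 0.05, 2 of 9 passed, beside 16.5% (2322) of all genes, and 1 was called by DESeq2, which called 485 genes in all. The groups did not overlap for 1 of 9, beside 21.5% of all genes. That gene was Rbl2, at 0.691 of its CTL level, with a log2 fold change of -0.53 (SE 0.13, 95% interval -0.84 to -0.23, adjusted p = 0.14). Rbl2 was called with DESeq2 (-0.52, adjusted p = 0.037), with all 12 libraries in a single fit (-0.52, adjusted p = 0.022) and without LIP 90 (-0.51, adjusted p = 0.040). Its adjusted p ran from 0.022 to 0.53 over all settings tried, with the value negative in each. Cdkn1b was the other gene, at 0.40 on the log2 scale (SE 0.16, 95% interval 0.04 to 0.76, adjusted p = 0.27). Its LIP 90 library (75.4 CPM) lay among the CTL libraries, while LIP 96 and 97 lay above them, and without LIP 90 it was called (0.56, adjusted p = 0.016). Its adjusted p ran from 0.016 to 0.62. Without LIP 90 the calls over all genes went from 0 to 2014.

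**Figure D4:**
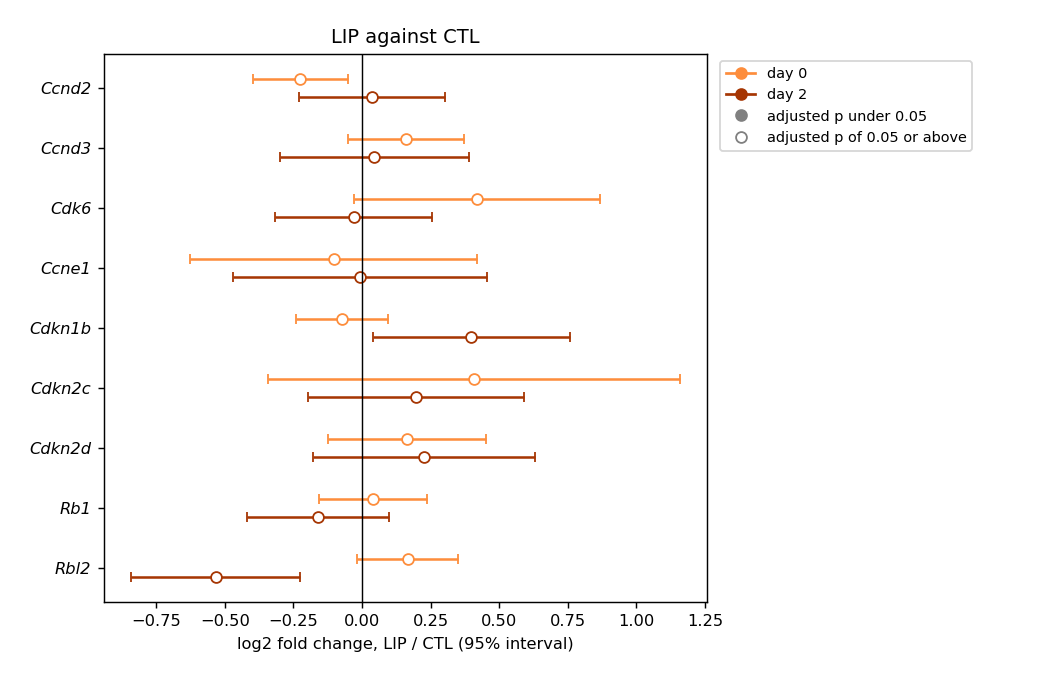
Log2 fold change of LIP over CTL for the 9 tested genes on day 0 (orange) and day 2 (brown), with 95% intervals. All points are open, since no adjusted p was under 0.05, and the intervals that leave out 0 are those of Ccnd2 on day 0 and of Rbl2 and Cdkn1b on day 2.

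The remaining 7 genes had smaller LIP-to-CTL values on day 2. The log2 fold change of LIP over CTL was -0.03 (95% interval -0.32 to 0.26) for Cdk6, -0.01 (-0.47 to 0.46) for Ccne1, 0.04 (-0.23 to 0.30) for Ccnd2, 0.04 (-0.30 to 0.39) for Ccnd3 and -0.16 (-0.42 to 0.10) for Rb1. The INK4 genes were at 0.20 (-0.20 to 0.59) for Cdkn2c and 0.23 (-0.18 to 0.63) for Cdkn2d. On leaving out each library in turn, Cdkn2c lay between 0.095 (without CTL 92) and 0.35 (without CTL 97). Cdkn2d lay between 0.096 (without LIP 90) and 0.38 (without CTL 92). These intervals leave room for differences of moderate size in either direction.

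The test of the difference between days in the LIP effect called none of the 9 genes, beside 0.0517% (8) of 15475 genes, and 3 of 9 had an unadjusted p under 0.05, beside 15.9%. These were Rbl2 (-0.68, adjusted p = 0.088), Cdkn1b (0.49, SE 0.18, adjusted p = 0.20) and Ccnd2 (0.28, SE 0.13, adjusted p = 0.31). The LIP-to-CTL value of Ccnd2 was -0.22 on day 0 and 0.04 on day 2, and that of Rbl2 was 0.17 and -0.53. By DESeq2, which called 520 genes in all, 1 of the 9 was called, Rbl2 (-0.67, adjusted p = 0.014), whose adjusted p ran from 0.010 to 0.33 over all settings. Without LIP 90, Rbl2 (-0.69, adjusted p = 0.017) and Cdkn1b (0.62, adjusted p = 0.011) were both called, and 1596 genes in all.

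The make-up of the pocket protein family on day 2 is a description, with no test. Per kb, the share of Rbl2 in the family was 37.2%, 35.4% and 29.4% in CTL 92, 93 and 97. The LIP libraries 90, 96 and 97 held 25.2%, 20.3% and 20.5%. Rbl1 held 41.7%, 42.7% and 49.1% in CTL and 54.5%, 62.4% and 63.2% in LIP. The 2 groups did not overlap for either share, and the shares depend on each other, since a larger share of 1 gene lowers the rest. In level, the groups did not overlap on day 2 for 21.5% of all genes. With the longest transcript as length, the Rbl2 means were 38.8% in CTL and 26.7% in LIP. The level of Rbl1 itself was 160, 138 and 177 CPM in CTL 92, 93 and 97. It was 184, 270 and 248 CPM in LIP 90, 96 and 97, above all CTL libraries, and LIP exceeded CTL by 0.55 on the log2 scale (adjusted p = 0.19).

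Of the 49 genes of the pathway lists, 46 were tested between LIP and CTL on each day and 48 for the difference between days, and edgeR called none, beside 0.427%, 0.00% and 0.0517% of all genes. At an unadjusted p under 0.05 there were 10, 4 and 9, beside 13.9%, 16.5% and 15.9% of all genes. Not tested were Cdkn1a, Cdkn1c and Cdkn2b on day 0, Ccnd1, Cdkn1c and Cdkn2b on day 2 and Cdkn2b for the difference. For Cdkn1a on day 2 all LIP libraries lay below all CTL libraries, beside 21.5% of all genes whose groups did not overlap. Its LIP-to-CTL value was -0.74 (adjusted p = 0.17) on the log2 scale. Of the others, chosen after their values were seen, Lin54, a DNA-binding subunit of the MuvB complex that partners Rbl2 in repression, was at -0.37 on day 0 (adjusted p = 0.14) and 0.52 on day 2 (adjusted p = 0.17), with a difference between days of 0.91 (adjusted p = 0.078). Foxo3 was at -0.47 on day 2 (adjusted p = 0.20).

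Of the 10 genes, 4 share exon bases with a protein-coding gene on the opposite strand, and the strand setting of the counting is not given in the sources used here. Rbl2 shares 4194 bases with Aktip, whose mean was 11.7 CPM in CTL and 12.0 CPM in LIP on day 2, with a LIP-to-CTL log2 fold change of 0.03 (adjusted p = 0.94). Rb1 shares 488 bases with Rcbtb2 and 408 with Lpar6, both of which fell between days, by 1.68 and 2.01 in CTL. Ccnd3 shares 369 bases with Bysl, which rose by 0.60 in CTL, and Ccne1 shares 70 bases with 1600014C10Rik, which fell by 1.43. Each of these moved the other way from its member in CTL. In LIP, Bysl and 1600014C10Rik again moved against their members, and Rcbtb2 and Lpar6 fell where Rb1 was not called. Aktip fell by 0.99 in CTL, where Rbl2 was not called, and by 1.00 in LIP (adjusted p = 1.7e-05), the same direction as Rbl2 there. The part of such reads in the members' values was not tested.

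The genes whose log2 CPM was most like each member over the 12 libraries are given by Pearson's r, as a description in which all points share the split between days. For Cdkn1b they were Il7r (0.995), the receptor subunit for IL-7, and Tsc22d3 (0.993). For Cdkn2c they were Cdca5 (0.997) and Rad51ap1 (0.993), genes of chromatid cohesion and DNA repair. For Cdk6 they were Gfi1 and Il12rb1 (both 0.997), for Ccne1 Rfwd3 (0.999) and Hspa14 (0.998), and for Cdkn2d Tgm2 (0.974) and Ndufc1 (0.959). Ccnd3 was nearest to Spata5l1 (0.978) and Fbxo31 (0.974), Rbl2 to Adam4 (0.957) and Gm43747 (0.950), Rb1 to A930004J17Rik (0.945) and Scd3 (0.917), and Ccnd2 to Ubfd1 (0.870) and Nr2c1 (0.841). An r above 0.9 was shared with 3379 genes for Ccne1, 3209 for Cdk6, 2926 for Cdkn2c and 2172 for Cdkn1b, but with 57 for Rbl2, 3 for Rb1 and 0 for Ccnd2.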

How the data were processed

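RNA of splenic CD4+ T cells was sequenced with a directional kit after rRNA depletion. Per the labels and the study's methods, the authors trimmed reads with Trimmomatic (version 0.38 in the processing notes, another in the methods), mapped them to GRCm39 with HISAT2 and Bowtie2 both named, and deposited RSEM 1.3.0 expected counts per gene. The deposited expected counts were rounded (73267 values were not whole). Log fold changes, p-values and false discovery rates of the authors' own comparisons were not used, nor were 2 per-sample columns that matched no sample described here. Symbols came from the deposited tables for 15174 records, the 10 members included, and otherwise from GENCODE M39.

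LIP was compared with CTL on the 6 libraries of each day, and the days and the difference between days on all 12, with edgeR 4.0.16 (R 4.3.3): filterByExpr, TMM factors, quasi-likelihood F test, adjusted p under 0.05. DESeq2 1.42.0 was an alternative. Levels per kb use merged exons. The fits were tested on simulated counts. Named are the 10 members, 10 genes of the pathway lists, the highest and lowest called gene of each list and the 2 genes most like each member. Members and lists were chosen with earlier results of these data known. Lin54, Foxo3, Cdkn1c and the overlapping genes were named after their values were seen. Values of some single marker genes are not reported here.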

Additional observations from a re-analysis of the deposited data

How the results depend on the processing

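Alternatives were RLE, upper-quartile or library-total scaling, DESeq2, no filter or at least 10 counts in every library, other library sets in the fit, and leaving out each library. Of 304 values of single genes outside the latter, 278 kept direction and side of the threshold, as did 301 of 324 with a library left out, which pools the spread over the rest. DESeq2 gave no adjusted p for 2 more (Cdkn2c and Ccne1 on day 0). The called count between LIP and CTL on day 0 went from 0 to 1 (Cdk6) with no filter and lay between 0 and 1 on leaving out libraries. On day 2 it was 1 (Rbl2) with DESeq2 and with all 12 libraries, and lay between 0 and 2 on leaving out libraries, with 2 without LIP 90. For the difference between days it was 1 (Rbl2) with library totals, DESeq2 or no filter, and between 0 and 2, with 2 (Cdkn1b and Rbl2) without LIP 90. The counts between days stayed within 7 and 8 in these settings. Calls over all genes varied more than 1.5 times: 60 on day 0 against 12 (all 12 libraries), 202 (DESeq2) and 645 (no filter), 0 on day 2 against 485 (DESeq2), 662 (no filter) and 775 (all 12), and 8 for the difference against 97 (library totals), 520 (DESeq2) and 815 (no filter). Leaving out 1 library gave 13 to 658 on day 0, 0 to 2014 on day 2 and 1 to 1596 for the difference, highest without CTL 94, LIP 90 and LIP 90. The cause was not tested.

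Signs turned only for genes that were not called. On day 2 these were Ccne1 (-0.01), at 0.0087 with RLE, 0.0082 with DESeq2, 0.032 with no filter and 0.0073 with all libraries, Ccnd2 (-0.051) and Ccnd3 (-0.041) with library totals, and Cdk6 (0.0061) with no filter. Between days in LIP they were Ccnd2 at -0.13 and Rb1 at -0.14 with upper-quartile factors and -0.17 and -0.18 with library totals. For the difference between days they were Cdkn2d (-0.092) and Ccne1 (-0.055) with library totals, where the median of all genes was -0.17. Ranges on leaving out a library were: on day 0, Ccne1 -0.23 to 0.031 and Rb1 -0.049 to 0.086. On day 2 they were Ccnd3 -0.082 to 0.16, Ccne1 -0.20 to 0.19 and Cdk6 -0.090 to 0.057. For the difference they were Ccnd3 -0.25 to 0.013, Ccne1 -0.10 to 0.31, Cdkn2c -0.41 to 0.15 and Cdkn2d -0.075 to 0.24. Rbl2 between days in CTL (-0.26 to -0.045) was called without CTL 92. Levels per kb moved beyond 1 SD for 26 of 40 values with the longest transcript. Depth limits Cdkn2a and Cdkn2b most.

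A fit of all 12 libraries with the library number as a replicate block was added after seeing the data and leaves 1 residual degree of freedom. CTL and LIP share 1 number on each day (94 and 97) and LIP on day 0 shares 92 and 93 with CTL on day 2. Deviations from the group means correlated above 0.1 in 1 of these 4 pairs (-0.055 to 0.10 over 15475 genes). In 2 of 8 directions a library was nearest to its own number. With 3 libraries per group, these pairs cannot show whether libraries of the same number share more than the number. With the block, 0 members were called between LIP and CTL on day 0, 1 on day 2 (Cdkn1b, 0.60, adjusted p = 0.029), 6 between days in CTL (Rb1 was at 0.51, adjusted p = 0.057, beside 0.36 without the block), 7 in LIP and 0 for the difference. Signs turned for uncalled genes, on day 2 for Cdkn2c (-0.20), Ccnd2 (-0.025), Ccnd3 (-0.097) and Cdk6 (0.036), and for the difference for Ccne1 (-0.090). Over all genes 61, 1404, 6847, 6884 and 550 were called in this order, beside 60, 0, 10676, 11111 and 8 without it.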
